A study of Drosophila melanogaster with 3 samples.

Results

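Weak distal peaks of the zinc finger protein Zif were defined as lines of the pooled relaxed peak list that overlapped no interval of the set kept by the irreproducible discovery rate (IDR), lay more than 500 bp from every annotated transcription start site (TSS), and overlapped by at least 1 bp a relaxed peak in each of 3 replicates. They numbered 6298 of the 30000 pooled lines. Membership was selected on measured values, namely the pooled signal, which the IDR set takes from the top, and the overlaps with the replicate lists. Signals are therefore given as descriptions with no test. The lists come from ChIP-seq of whole Drosophila melanogaster embryos of both sexes, 0 to 24 h old, from 1 transgenic line whose Zif (CG10267) carries GFP at its C-terminus. Precipitation used an antibody against GFP, although the antibody label names CG10267. All samples form 1 group with no treatment and no second genotype, and the labels do not name the promoter that drives the fusion. A control library entered peak calling and was not analysed here. Embryos were pooled over all stages and tissues, so a signal from few cells and a low occupancy in many cells cannot be told apart.

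Zif belongs to the C2H2 zinc finger proteins with a zinc finger-associated domain (ZAD), a family expanded in insects, and is known from the neuroblast, where it regulates atypical protein kinase C. ChIP-seq peaks away from TSSs commonly fall in enhancers and other open regulatory DNA, which in flies often lie in long introns of developmental genes. IDR filtering keeps the peaks whose rank is reproducible between lists.

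Of the 30000 pooled lines, 18851 overlapped no IDR interval. Among these, 14644 had a summit over 500 bp from a TSS and 4207 did not. A peak was present in all replicates at 6298 of the distal lines, in 2 of them at 5022, in 1 at 2823 and in none at 501. Replicate 2 most often lacked the peak, at 5487 distal lines, against 4003 for replicate 3 and 2681 for replicate 1. Thus 43.0% of the distal lines below the IDR limit were met in every replicate, against 61.9% of the lines below the limit within 500 bp of a TSS. The members were 6298 distinct intervals, and 5978 of them had the commonest width of 480 bp. Their −log10 q values ran from 0.327 to the ceiling of the list, 4.41, which 2008 members reached, with a median of 2.45.

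The sequences at the summits of the 5 members of highest pooled signal show what the strongest members look like. Each line gives the plus strand of the RefSeq Release 6 genome (dm6) over the 101 bp centred on the summit, with the longest uninterrupted run of A and T in capitals.
intergenic, nearest gene CG15452, chrX:20756631-20756731: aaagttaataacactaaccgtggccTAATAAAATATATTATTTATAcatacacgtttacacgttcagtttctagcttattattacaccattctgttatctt
intron of ovo, chrX:5062117-5062217: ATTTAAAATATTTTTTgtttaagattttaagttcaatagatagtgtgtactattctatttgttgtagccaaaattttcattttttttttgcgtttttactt
intron of gish, chr3R:16276348-16276448: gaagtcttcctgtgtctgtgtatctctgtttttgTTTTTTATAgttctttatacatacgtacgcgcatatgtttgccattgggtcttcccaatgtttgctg
intron of nmo, chr3L:8018718-8018818: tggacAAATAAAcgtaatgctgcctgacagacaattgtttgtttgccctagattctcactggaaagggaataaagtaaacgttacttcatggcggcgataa
intron of CG9674, chr3L:16803887-16803987: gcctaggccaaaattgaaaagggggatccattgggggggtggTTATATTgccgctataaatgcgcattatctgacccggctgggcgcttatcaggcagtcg
The longest A and T runs measured 21, 16, 9, 7 and 7 bp in this order. GC content over the window was 27.7% near CG15452, 19.8% in ovo, 38.6% in gish, 40.6% in nmo and 53.5% in CG9674. The strongest members thus ranged from very AT-rich to GC-rich windows.

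The pooled signals of these 5 peaks lay between 203.7 and 203.9, just under the lowest signals of the distal IDR peaks, 204.1 and 204.2. At ovo, which encodes a zinc finger factor of the germline and epidermis, the peak measured 118, 38.9 and 56.1 in replicates 1 to 3. At gish, which encodes a casein kinase I, the values were 61.6, 92.2 and 72.8, the highest being in replicate 2. At nmo, the Nemo-like kinase gene, they were 76.0, 42.9 and 87.7. No replicate was highest at all of these peaks, although replicate 1 had the highest median over all members. The distal IDR peak of lowest pooled signal, in zfh1, had 86.2, 28.0 and 88.7, of which the value in replicate 2 was below those of the 5 members. At the other end, the 5 members of lowest pooled signal had 34.1 to 34.2. Among them, the peak in an intron of disco-r had 45.0, 30.3 and 24.1 in replicates 1 to 3, above the weakest replicate values of the members.

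Over all members, the pooled signal had a median of 89.7 (range 34.1 to 203.9). The replicate signal, that of the strongest overlapping relaxed peak in a replicate, had medians of 50.5 (replicate 1, range 18.76 to 213.8), 24.95 (replicate 2, 12.96 to 133.5) and 36.45 (replicate 3, 14.42 to 154.2). Relative to the median at all IDR peaks of the same replicate, these medians were 0.2492, 0.2365 and 0.2566. Distal IDR peaks had medians of 183.3, 66.33 and 127.2, which were 0.9052, 0.6288 and 0.8953 of the same level, lowest in replicate 2. Only 5.29% to 5.94% of members met a peak among the 8630 highest of a replicate list. Weak promoter peaks, the 2603 lines below the IDR limit within 500 bp of a TSS and met in each replicate, had median signals of 57.3, 32.8 and 41.2. The distal median over the promoter median was 0.880, 0.760 and 0.885 in replicates 1 to 3, lowest in replicate 2.

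**Figure D1:**
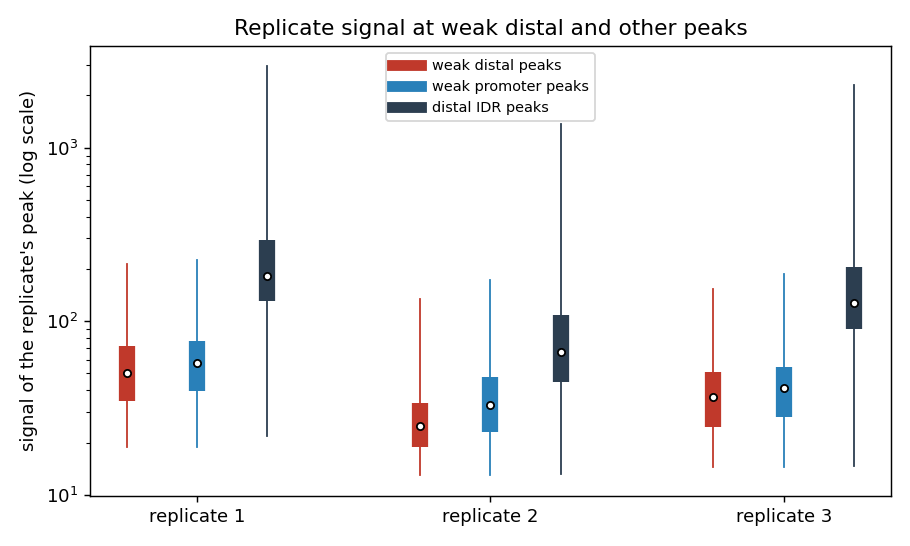
Signal of the overlapping relaxed peak in each replicate (log scale) at weak distal peaks, weak promoter peaks and distal IDR peaks. White points are medians, thick bars the middle 50% of peaks and thin lines the whole range; the medians of the weak distal peaks, 50.5, 24.95 and 36.45, are the lowest of the 3 sets in each replicate, and the ranges overlap.

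The order of the members by signal was only partly shared between replicates. Across the 6298 members, Spearman's rho was 0.513 between replicates 1 and 3, 0.276 between 1 and 2 and 0.273 between 2 and 3. Across the 3401 distal IDR peaks met in every replicate it was 0.842, 0.731 and 0.716 for the same pairs. These values describe peaks within shared libraries and a restricted signal range, and are no test. Summit positions varied as well. The replicate summit lay a median of 44 bp from the pooled summit in replicate 1, 85 bp in replicate 2 and 63 bp in replicate 3, and within 100 bp at 66.8%, 54.0% and 59.7% of members. Requiring a summit within 100 bp in every replicate left 2626 members.

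Several members of high replicate signal lay close to IDR peaks. Of the 10 members ranked highest by the worst of their replicate ranks, 7 lay within 411 bp of an IDR summit, among them the member in unc-5 (a netrin receptor gene) at 200 bp, with 112.8, 78.0 and 154.2, and the member in tkv at 411 bp, with 102.3, 60.1 and 100.9. The pooled signal of the tkv member was 45.8, below its value in every replicate. Members away from IDR summits in this group were in Dad, the inhibitory Smad gene, and in spi, an EGF receptor ligand gene. The spi member, 939 bp from an IDR summit, had 98.1, 74.0 and 86.3. Both Dad members, 3265 and 3365 bp away, met the same peak in replicates 1 and 3, with 100.5 and 95.7. Over all members, 68 (1.08%) met a replicate peak that also overlapped an IDR interval, and 43.2% to 43.7% shared their peak in a replicate with another member. The 3364 members with a peak of their own in each replicate had median signals of 50.1, 22.9 and 34.6.

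Members lay mostly in introns. Introns held 4083 summits, or 64.8% (95% exact binomial interval 63.6 to 66.0), against 45.7% of all bases more than 500 bp from a TSS, called distal bases here. Measured at each replicate's own summits, the intron share was 64.75%, 64.04% and 64.45%, or 64.4% ± 0.359 (SD, n = 3). Intergenic sequence held 1695 members, 26.9% against 31.5% of distal bases. Coding exons held 74 members, or 1.17% (0.924 to 1.47), against 16.1% of distal bases, a ratio of 0.0731. The 3′ UTRs held 245 members (3.89%), 5′ UTRs 82 (1.30%) and other exons 119 (1.89%). Of the intronic members, 2665 (65.3%) lay in a first intron of some transcript, against 41.8% of distal intron bases. Intronic distal IDR peaks had nearly the same share, 65.75%. The binomial intervals cover counting error only, and no depth is known because the lists hold no read counts.

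**Figure D2:**
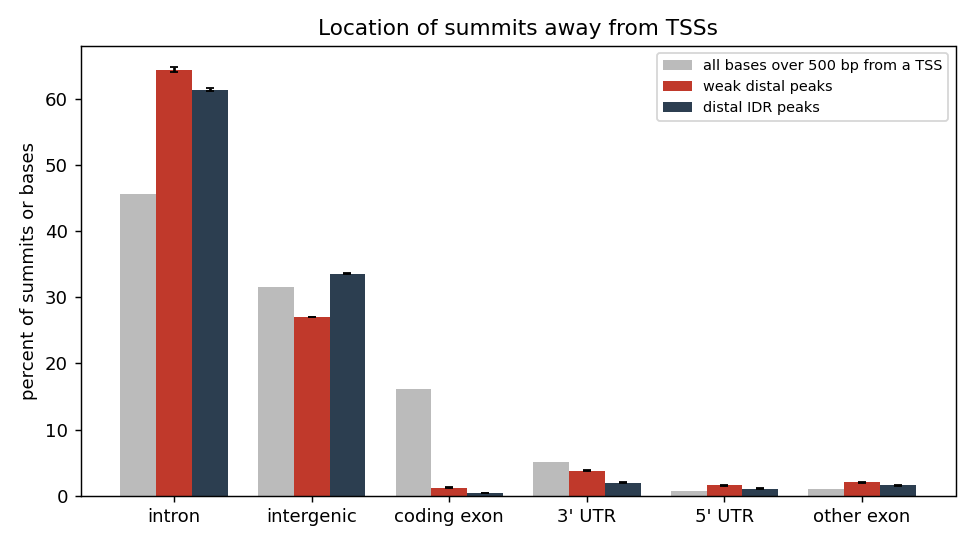
Percent of distal bases (grey), of weak distal peak summits (red) and of distal IDR peak summits (dark) in each kind of sequence. Bars for peaks are means over the summits of 3 replicates with SD; introns hold 64.4% of weak distal summits, 61.4% of distal IDR summits and 45.7% of distal bases, while coding exons hold 1.21%, 0.4055% and 16.1%.

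Compared with the 3478 distal IDR peaks, the intron share of members was higher by 3.22, 2.93 and 2.99 points in replicates 1 to 3. The intergenic share was lower in each, with a mean difference of -6.56 points (SD 0.0773, n = 3). The coding exon share was higher in each, by 0.801 points on average (SD 0.1145). Each of these gave p = 0.25 by a two-sided exact sign-flip permutation test over the replicates, the smallest p that 3 replicates allow, and 0.355 after Benjamini-Hochberg adjustment over the 27 comparisons made between members and distal IDR peaks. This test can therefore call none of them at this number of replicates. The same members and distal IDR peaks were used in each replicate, and only the summit position differed. The SD thus covers shifts of the summits within shared peak sets, and not peak sets found independently in each replicate. The median distance to a TSS was 2860 bp for members, 2830 bp for distal IDR peaks and 4374 bp for distal bases. The members nearest to the limit lay 501 bp from a TSS, near TM4SF, in CG44836 and in muc, with pooled signals of 96.7, 72.0 and 70.6. The lines just outside it, near scyl and in slo and sd at 499 or 500 bp, had 92.7, 79.7 and 76.2.

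Members lay nearer to IDR peaks than distal bases do. The nearest IDR summit was a median of 3282 bp away, against 11514 bp for distal bases, and lay within 2000 bp of 32.9% of members and 15.8% of distal bases. Distal bases include long stretches without IDR peaks, with an upper quartile of 40042 bp against 7340 bp for members. Members also lay nearer to TSSs than distal bases, and the part of either in this contrast was not tested. Within 500 bp the order was the opposite, 0.413% against 3.04%, a gap made by the rule that members overlap no IDR interval. The nearest other member was a median of 927 bp away. Overlapping intervals joined 2826 members (44.9%) into domains of 2 or more, and the 6298 members formed 4848 domains. The domain with most members, 4, spanned chr2L:11806832-11808334 in crol, which encodes a zinc finger protein of the ecdysone response. Members are thus not independent of each other.

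**Figure D3:**
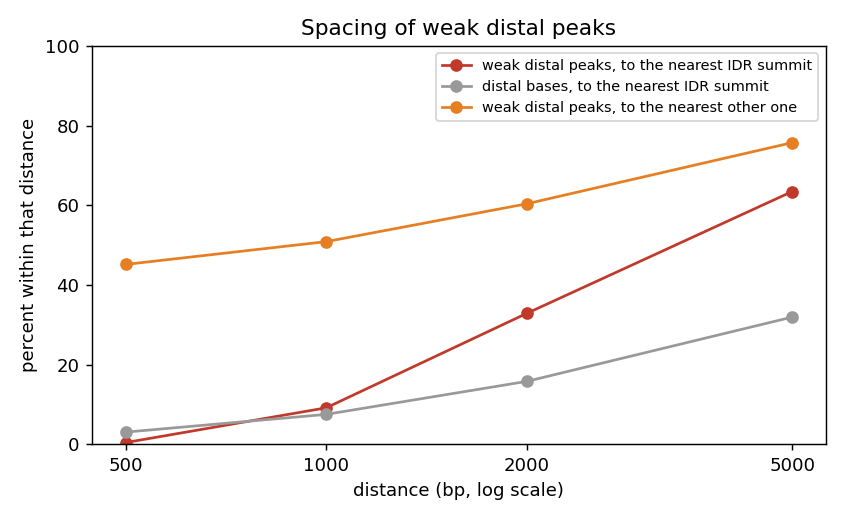
Percent of weak distal peaks within a given distance (log scale) of the nearest IDR summit (red) and of the nearest other weak distal peak (orange), and of distal bases within that distance of an IDR summit (grey). At 5000 bp the values are 63.5%, 75.7% and 31.9%; at 500 bp the red line starts below the grey one.

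Summits were poorer in GC than their surroundings. The 101 bp at the summit held 35.8% GC on average (SD over peaks 9.70), against 41.6% in equally wide windows 250 bp to each side and 42.1% over all distal windows. The last value includes coding exon windows, at 52.7%, where few members lie. Intron windows held 39.98% and intergenic windows 40.76%. At the replicates' own summits the level was 34.9%, 37.1% and 35.5%, and the difference from the flanks was -7.15, -4.13 and -6.32 points, a mean of -5.87 ± 1.56 (SD, n = 3). It was negative in every replicate, with p = 0.25 in the exact sign-flip permutation test, the smallest value possible. Distal IDR peaks had a deeper dip, from 44.4% in the flanks to 30.3% at the summit. Their flanks lay above more distant sequence, which at 1000 bp to either side held 40.77% and 40.63%, near the 40.75% and 40.79% of members. Between members and distal IDR peaks the summit GC differed by 4.86, 5.49 and 5.09 points in replicates 1 to 3, with members higher in each (exact permutation p = 0.25, adjusted 0.355). Weak promoter peaks changed by -1.49 points, from 41.1% to 39.6%. The 8346 distal lines below the IDR limit that lacked a peak in some replicate had 36.1% GC at the pooled summit and 41.4% in the flanks, close to the values of the members.

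**Figure D4:**
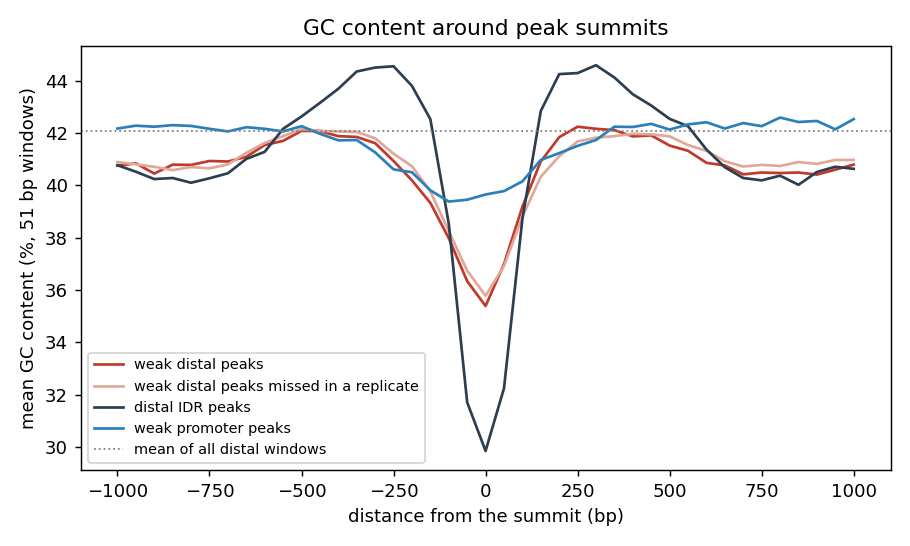
Mean GC content in 51 bp windows against the distance from the pooled summit for weak distal peaks, those missed in a replicate, distal IDR peaks and weak promoter peaks; the dotted line is the mean of all distal windows, 42.1%. The weak distal peaks dip at the summit, less deeply than the distal IDR peaks and more deeply than the weak promoter peaks.

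Among members, the dip followed the pooled signal. With members ordered by pooled signal and cut into 4 equal groups, the summit minus flank difference at the pooled summits was -0.602 points in the weakest group, then -3.62, -7.32 and -11.7 in the strongest. At the replicates' own summits the same groups gave -3.10 ± 1.52, -3.87 ± 1.17, -6.38 ± 1.74 and -10.1 ± 1.86 points (SD, n = 3). The distal lines missed in a replicate had a median pooled signal of 49.1, within the range of the weakest group (34.1 to 61.2). Their difference at the pooled summits was -5.34 points, so the order by signal did not extend to them. Pooled signal and summit GC had a Spearman's rho of -0.291 across the 6298 members. With the signal of a single replicate, rho came to -0.156 for replicate 1, -0.126 for replicate 3 and 0.101 for replicate 2, so replicate 2 went the other way. These peaks share libraries and base composition, and rho is a description. The 1695 intergenic members had a larger dip, -8.03 points, than the 4083 intronic ones, -5.44. The 74 coding exon members had a rise of 6.34 points at the pooled summits, but differences of 3.07, -0.167 and -0.127 points at the replicates' summits. Runs of at least 15 uninterrupted A and T were found in 15.7% of member windows, 8.69% of flanks, 7.94% of all distal windows and 22.5% of distal IDR windows.

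Short words known as cores of binding motifs were searched on both strands within 50 bp of each summit. Of 22 words, 9 had a higher share at the summit than in the flanks in every replicate, 4 a lower share in every replicate and 9 neither. AGATAA, the GATA factor core, was in 552 members (8.77%), 6.22% of flanks and 5.55% of all distal windows, and the summit exceeded the flanks by 2.13, 1.98 and 2.10 points in replicates 1 to 3. TAATTA, a homeodomain core, was in 518 members (8.22%), 6.46% of flanks and 6.55% of all distal windows, with differences of 1.93, 1.20 and 1.87 points. CACACACA, a dinucleotide repeat, was in 3.02% of members, 3.36% of flanks and 2.06% of all distal windows, and at the summit was lower than in the flanks by 0.977, 0.691 and 1.37 points in replicates 1 to 3. The CTCF core AGNTGGCGC (N is any base) was in 40 members (0.635%), 0.381% of flanks and 0.276% of all distal windows. The other words higher at the summit in every replicate were TATCGATA (DREF, 0.492% against 0.262% of flanks), CATATG (an E-box, 4.001% against 3.39%), TGCATACTT (Su(Hw), 0.286% against 0.214%), CCGGAAGT (ETS factors, 0.159% against 0.0794%), TTTATG (Caudal, 14.3% against 12.6%) and AAAAAAAA (9.35% against 7.73%). Over all distal windows they stood at 0.198%, 2.77%, 0.206%, 0.179%, 10.9% and 5.48%. Some of these shares rest on few members: 31 for TATCGATA, 18 for TGCATACTT and 10 for CCGGAAGT. For CCGGAAGT the difference in replicate 1 was only 0.0159 points. The E-boxes CACCTG (2.46% against 3.02%) and CACGTG (1.03% against 1.21%) and the Grainyhead core ACCGGT (0.460% against 0.572%) were lower in every replicate, and stood at 3.90%, 1.14% and 0.648% of all distal windows. The words with no common direction were CAGGTA of the pioneer factor Zelda (2.05% of members, 1.83% of flanks and 2.26% of all distal windows), GAGAGA of GAGA factor (5.13%, 5.22% and 3.46%), GGTCACACT of M1BP (0.111%, 0.0318% and 0.0423%), the E-box CAGCTG (3.87%, 4.15% and 4.11%) and TAATCC of Bicoid (3.08%, 3.13% and 3.38%). They also held TGANTCA of AP-1 (2.75%, 2.56% and 1.93%), ACATTCC of Scalloped (1.05%, 1.01% and 1.12%), TTCNNNGAA of Stat92E (2.87%, 2.81% and 2.91%) and AGGTCA of nuclear receptors (2.03%, 2.08% and 2.74%). All of the words with a common direction had the smallest possible p of 0.25 in the exact permutation test, or 0.423 after adjustment over the 22 words. At this number of replicates the test can call none of them, and the A and T content of the words moves with the GC dip; its part in the result was not tested.

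Against distal IDR peaks, TAATTA was less frequent in members at every replicate's summits (8.07% ± 0.445 against 11.7% ± 0.527, SD, n = 3). CACACACA was more frequent in members, 2.615% ± 0.167 against 0.8025% ± 0.273. AGATAA stood at 8.44% ± 0.303 against 9.15% ± 0.548, lower in each replicate by 0.235 to 1.42 points. The A and T words ATATTA and TTTAAA, picked after the data were seen, were in 16.4% and 16.2% of members, 8.67% and 9.43% of flanks, and 26.8% and 22.6% of distal IDR windows.

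The 8-letter word most enriched at IDR summits, CAACACTG, served as a measure of how far members share the sequence of the kept peaks. It was found in 53 members (0.842%), 0.333% of flanks and 0.242% of all distal windows. The difference from the flanks was 0.476, 0.484 and 0.286 points in replicates 1 to 3. Distal IDR peaks had it at 1.09% and weak promoter peaks at 0.692%. The leading words were picked on all 8630 IDR peaks, of which 3478 are distal. Shares at distal IDR peaks thus come partly from peaks that chose the words, and are no independent yardstick for members. The other 9 leading words of the IDR peaks were TATCGATA (31 members), ATCGATAG (23), GCTATCGA (11), AGCTATCG (11), ATATCGAT (45), ACTATCGA (19), ATCGATAA (38), AGTGTTGG (35) and GGTCACAC (14), and several overlap one another or a word above. Any of the 10 was found in 197 members (3.13%), 1.91% of their flanks, 1.88% of all distal windows, 2.96% of distal IDR peaks and 9.03% of weak promoter peaks. TATCGATA, the core of the promoter factor DREF, was in 0.492% of members and 2.84% of weak promoter peaks. Most members, like most distal IDR peaks, thus held none of these words within 50 bp.

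Of the 3 members with most occurrences of the word in their interval (ties taken by pooled signal), the intronic ones are shown from 10 bp before its first to 10 bp after its last occurrence, with the word or its reverse complement CAGTGTTG in capitals.
intron of dysc, chr3L:13884364-13884654: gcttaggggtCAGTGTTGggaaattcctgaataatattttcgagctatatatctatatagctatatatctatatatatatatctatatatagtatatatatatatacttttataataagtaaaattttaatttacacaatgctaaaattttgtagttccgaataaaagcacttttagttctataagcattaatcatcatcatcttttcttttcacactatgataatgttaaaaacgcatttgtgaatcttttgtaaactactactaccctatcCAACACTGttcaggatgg
intron of crp, chr2L:16272706-16272745: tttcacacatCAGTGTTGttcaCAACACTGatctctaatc
In crp, which encodes a bHLH zipper factor, the words begin -148 and -136 bp from the pooled summit. In dysc, a gene of circadian output, they begin -225 and 38 bp from it, on either side of a long A and T rich stretch. All but the last lie beyond the 50 bp used for the counts. In the member not printed, in the 3′ UTR of stnB, they begin -13 and 63 bp from the summit. Signals in replicates 1 to 3 were 43.1, 55.2 and 37.6 in crp, and 41.3, 77.1 and 58.7 in dysc, highest in replicate 2 in both. A match is a description of the letters and not a binding site.

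Each summit was assigned to the gene whose body held it, or else to the nearest protein-coding TSS. Of 13945 protein-coding genes, 2167 (15.5%) had at least 1 member. Genes with much distal sequence had them more often. Among the 1395 genes with most distal bases (median 34.6 kb) the share was 57.0%, against 9.11% in a group with a median of 2.65 kb. A single member was assigned to 903 genes, 2 to 4 to 890, 5 to 9 to 293, and 10 or more to 81. Genes with a member had an IDR summit at a promoter in 49.9% of cases and genes without one in 39.4%. Among the 1395 genes with most distal bases these shares were 46.0% and 16.0%. Genes that hold a distal IDR peak received 67.7% of members and 35.2% of distal bases.

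The gene with most members was hth, which encodes a TALE homeodomain partner of Hox proteins. Its 34 members, 26 of them intronic, had a median pooled signal of 91.3 (range 38.0 to 185.9) and median replicate signals of 48.0, 27.4 and 34.4, next to 16 distal IDR peaks. Eip75B, an ecdysone-induced nuclear receptor gene, had 27 members, 25 intronic, with replicate medians of 46.65, 25.7 and 39.73. Glut4EF also had 27 members, beside a single distal IDR peak. All 26 members of fz2, a Wingless receptor gene, were intronic, with a density of 28.9 per 100 kb of distal bases. EcR, the ecdysone receptor gene, had 22 members (31.7 per 100 kb), sbb, a corepressor gene, 22, and cic, an HMG-box repressor of receptor tyrosine kinase targets, 21 (37.3 per 100 kb). CG43658 had 24, while CG42238, the RhoGAP gene cv-c and pyd, which encodes a junction protein, had 21 each. The rule for named genes took 10 and broke the tie at 21 by symbol, so pyd lies just outside it. Over all distal bases the density was 5.44 per 100 kb. Replicate medians of these genes followed the order of all members, highest in replicate 1 and lowest in replicate 2.

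Among genes with at least 5 members, the density was highest at aqz with 96.6 per 100 kb, CG14662 with 91.1 and CG2991 with 80.9, each without a distal IDR peak. The 5 members of aqz lay in neither introns nor intergenic sequence and had a summit GC of 48.3%, above their flanks at 42.2%. Vha16-1, a proton pump subunit gene, had 74.7 and RpL13, a ribosomal protein gene, 73.6, the latter with 5 of 6 members intergenic. Su(Tpl), which encodes an elongation factor subunit, had 71.8, and chic, the profilin gene, 66.8. CG1888, Dip-B and wech lay between 66.8 and 68.4. Such densities rest on 5 to 9 members over 5.2 to 13.2 kb.

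Gene lists were set beside all protein-coding genes by members per distal base. Developmental signalling lists stood above it. Distal IDR peaks did so as well, so this is not particular to members. Against 3.005 distal IDR peaks per 100 kb over all genes, BMP and activin genes had 9.95 and receptor tyrosine kinase genes 8.61. Wnt and Hedgehog genes had 9.24 and Notch pathway genes 6.92. Glial genes had the most, 13.1, while neuronal and synaptic genes had 1.58. In the BMP and activin list, 10 of 19 genes had a member, with 67 members at 19.1 per 100 kb, 3.50 times the density of all genes. The 3 replicates' own weak distal peaks gave 2.60, 2.83 and 2.72 times (mean 2.72 ± 0.114, SD, n = 3). Under other settings the ratio of this list ran from 2.756, with a replicate summit within 100 bp, to 4.107, for members with a peak of their own in each replicate. The share of its genes with a member was 52.6%, against 33.4% for genes of the same length, meaning the share over all genes in the same deciles of distal bases, averaged over the list. Its members were led by the glypican genes dally, with 13, and dlp, with 12, and the type I receptor gene tkv, with 13. Receptor tyrosine kinase genes had 101 members in 18 of 27 genes, 2.91 times the density of all genes (replicates 2.29 ± 0.0938), and 66.7% of these genes had a member against 39.0% for genes of the same length. They were led by the FGF ligand gene ths with 13, the ETS factor gene pnt with 12 and the feedback inhibitor gene sty with 12. The ratio of this list ran from 2.345 at the ceiling of q to 3.151 with a TSS limit of 1000 bp. Wnt and Hedgehog genes stood at 2.56 times, with 14 of 26 genes (53.85% against 38.8% at the same length), and Notch pathway genes at 2.32 times, with 9 of 20 genes (45% against 25.25%). The coactivator gene mam had 13, numb 7 and the receptor gene N 6.

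Ecdysone response genes held 112 members in 12 of 22 genes, 2.51 times the density of all genes (replicates 1.79 ± 0.0195). The share with a member was 54.55%, against 40.8% for genes of the same length. With Eip75B and EcR, the nuclear receptor gene ftz-f1 led them, with 19. Cell cycle and replication genes had the highest ratio, 4.28 (replicates 3.15 ± 0.299), but over only 30 members in 10 of 30 genes (33.3% against 11.9% at the same length). Of these, E2f1 held 15, fzr, an activator of the anaphase-promoting complex, 4, and CycA 2. Members at the ceiling of q alone gave 1.79 for this list, members with a peak of their own in each replicate 2.40, and a replicate summit within 100 bp 2.395.

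Among lists of embryonic patterning genes the ratio ran from 1.14 to 2.20. Hox genes had 27 members in 6 of 8 genes, 1.25 times the density of all genes, with 75% of genes against 54.98% at the same length, led by Antp with 11, Ubx with 7 and Dfd with 4. Maternal and gap genes stood at 1.51, pair-rule and segment polarity genes at 1.72, temporal patterning genes at 1.14 and proneural and neuroblast identity genes at 2.20. In the last list brat, which encodes a translational repressor that limits neuroblast growth, held 17 of 40 members. Among lists of tissues, glial genes stood at 3.21 (28 members, 12 of them in pnt, which is also a receptor tyrosine kinase gene here), trachea and epidermis at 2.58, gut, hemocyte and fat body at 2.54, and muscle and mesoderm at 1.10. Within them ush, the cofactor gene of GATA factors, held 18, fkh 10, vvl 11 and the muscle gene kirre 18 over 312.5 kb.

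Neuronal and synaptic genes had 26 members in 11 of 20 genes, 0.684 times the density of all genes (replicates 0.601 ± 0.100). With members that have their own peak in each replicate this ratio was 0.985, and with a replicate summit within 100 bp 0.947. Of these genes 55.0% had a member, against 45.5% for genes of the same length. Axon guidance and adhesion genes stood at 0.882, but at 1.07, 0.966 and 1.045 in the replicates' own lists (mean 1.03 ± 0.0546, SD, n = 3), so no direction is given. Of these, 22 of 28 genes (78.6%) had a member, against 52.9% for genes of the same length. Ribosomal protein genes were lowest, at 0.482 for cytosolic and 0.156 for mitochondrial ones. Of 87 cytosolic genes 4 had a member, or 4.60%, against 6.44% for genes of the same length, although 92.0% of them had an IDR summit at a promoter. Of 73 mitochondrial genes 1, mRpS5, had members, both intergenic, or 1.37% against 2.13% for genes of the same length. This gene alone has 194.6 kb of the 0.236 Mb of distal bases of its list, so the ratio rests mostly on it. Polycomb and Trithorax genes had 23 members in 7 of 26 genes, 1.83 times the density of all genes, led by osa with 9. Their share of genes with a member, 26.9%, was close to the 24.8% of genes of the same length. Because the lists are short and were chosen with earlier results known, these counts describe the lists and carry no test.

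**Figure D5:**
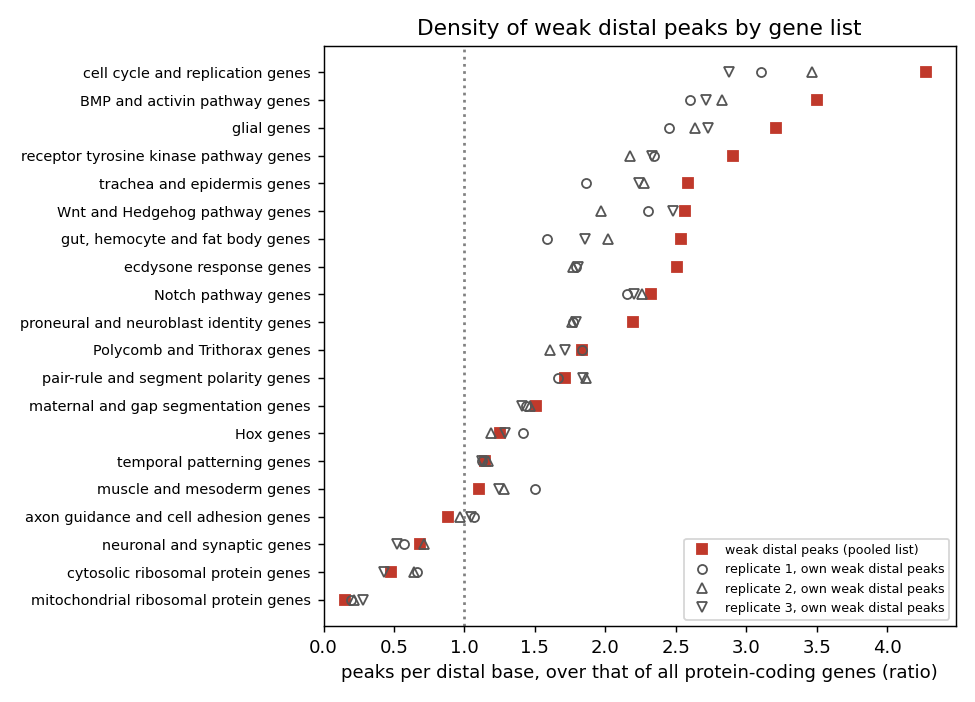
Weak distal peaks per distal base for each gene list, as a ratio to all protein-coding genes (dotted line at 1). Squares are the 6298 weak distal peaks and open symbols the distal peaks of each replicate's own list that overlap no IDR interval; cell cycle genes reach 4.28 and BMP genes 3.50 in the pooled list, and neuronal and ribosomal lists lie below 1 in it and in every replicate.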

How the data were processed

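Peak lists of 3 replicates, a pooled list and the IDR set were used. Per the labels and the deposited file lists, relaxed peaks were called against a control library on dm6. Neither the software and versions behind alignment and calling nor the IDR limit applied is stated there. The authors deposited a signal and a −log10 q value for each peak, and neither is normalised between lists. The file lists derive the pooled list from replicates 2 and 3, but its signal was a median of 0.894 times the sum of all 3 replicate signals at members and 1.52 times that of replicates 2 and 3, so no replicate was taken as independent of it. The lists hold no read counts, so depth is unknown.

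Members were found by the rule in Python 3.11.15 (pandas 2.3.3, numpy 2.4.6), with TSSs and locations from Ensembl release 115, transposable elements left out. A location took the first of coding exon, 5′ UTR, 3′ UTR, other exon, intron and intergenic. Of the gene list symbols, 4 (Drop, Dl, phm and calypso) were not matched. The members and lists were chosen with earlier results of these data known. The named regions and genes were the 5 members of highest and the 5 of lowest pooled signal, the 10 ranked highest by their worst replicate rank, the 10 genes with most members, the 10 with most per 100 kb, the lines nearest to the TSS limit, up to 3 genes per list and the members richest in the leading word, of which the text gives a part. Overlaps, distances, word counts and the permutation test were tested on simulated data. The p-values rest on 3 replicates of 1 fly line, compared at shared peak sets. Where all 3 replicates had the same direction, the p-value was the smallest possible, whatever the spread between them. It then records a shared direction and does not measure that spread.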

Additional observations from a re-analysis of the deposited data

How the results depend on the processing

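Of 237 values recomputed under the alternatives, 172 were kept and 65 moved further. Kept means within 1.5 times (counts), within the SD between replicates (shares and gene list ratios) or in the same direction (tests). Direction was judged for the tests alone, and none of them reversed. Each test result thus counts as kept under all 15 of its alternatives. Shares were less stable: introns moved under 9 and were kept under 4, intergenic sequence 12 and 1, coding exons 8 and 5. List ratios moved under 9 and were kept under 4 for BMP and activin, 10 and 3 for receptor tyrosine kinase, 7 and 6 for cell cycle, and 6 and 7 for neuronal genes. The number of members fell to 2626 with a replicate summit within 100 bp, to 2008 at the ceiling of q, and to 3364 with a peak of their own in each replicate. It was 7119 to 9042 when 1 replicate was not required. At the ceiling of q, 1200 genes had a member. The intron share was 61.68% with a TSS limit of 200 bp, 66.27% with 1000 bp, 63.0% with protein-coding TSSs, 64.27% with a longer overlap required, 64.39% at the ceiling of q, 64.03% with own peaks, 65.26% with transposable element starts as TSSs, and 64.14% to 64.62% without 1 replicate. The intergenic share under the same alternatives was 28.27%, 27.04%, 27.29%, 27.73%, 30.33%, 28.33%, 26.44% and 26.31% to 27.59%, with 28.87% for summits within 100 bp and 27.64% for 1 member per domain. The coding exon share was 1.378% with 200 bp, 1.023% with 1000 bp, 1.028% for summits within 100 bp, 0.4482% at the ceiling of q, 1.073% with 1 member per domain, 1.04% with own peaks, and 1.172% to 1.599% without 1 replicate. The GC difference from the flanks ran from -9.47 points at the ceiling of q to -4.81 with windows of 100 bp to each side, and was -7.15 to -4.84 without 1 replicate. The difference in GC from distal IDR peaks ran from 2.87 to 5.55 points. The make-up of distal bases changed with the TSS limit as well. Introns held 44.24% of them with 200 bp, 47.33% with 1000 bp and 45.04% with protein-coding TSSs. Coding exons held 17.2% with 200 bp and 13.87% with 1000 bp. The cause of the shifts in shares and GC was not tested. Taking the strongest summit of each interval changed nothing, since no interval held more than 1 member. Its values are among the 172 by construction.

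The own-peak, domain and transposable element alternatives were chosen after seeing the data. No paired analysis was possible because all samples belong to 1 group, so no groups could be paired; summit against flank and members against distal IDR peaks were compared within each replicate. The sign-flip test cannot go below 0.25 with 3 replicates. With unknown depth, a missing replicate peak does not show that a region was unoccupied.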

Other observations

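Weak distal peaks were spread over all major chromosome arms. The density per Mb of distal bases was 62.9 on X, 58.7 on 3L, 57.6 on 2L, 48.3 on 3R, 47.2 on 2R and 40.7 on chromosome 4, which held 49 members, against 54.4 over all arms. Their median pooled signal ran from 79.7 on chromosome 4 to 92.1 on 3R and X. Annotated transposable elements held 52 members (0.826%), against 6.73% of distal bases, 0.259% of distal IDR peaks and 0.994% of the distal lines missed in a replicate. Distal bases were not filtered for how well reads can be placed in repeated sequence. The part of this in the contrast with distal bases was not tested. Soft-masked sequence held 22.9% of members and 20.9% of distal bases.

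The 8346 distal lines below the IDR limit that lacked a peak in some replicate had a median pooled signal of 49.1, against 89.7 for members. Their summits were in coding exons at 3.13% and in 3′ UTRs at 7.08%, against 1.17% and 3.89% for members. Where replicate 2 had a peak at them, its summit was in a coding exon at 5.14%, against 2.15% in replicate 1 and 2.42% in replicate 3. The GC difference from the flanks at those summits was -1.08 points in replicate 2, -6.54 in replicate 1 and -5.92 in replicate 3.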
